A study of Mus musculus with 2 samples.

Results

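Alveolar type I (AT1) cells were 97 of the 23930 lung cells that passed quality control, 72 of 10906 in the Cebpa fl/fl library and 25 of 13024 in the library labelled CebpaΔSftpc. They were chosen by their own counts, as barcodes with at least 5 unique molecular identifiers (UMIs, each a captured RNA molecule counted once) and at least 0.5% of all UMIs from Ager, Rtkn2 and Akap5 together. Cells with 3% or more of their UMIs from Sftpc, 2% or more from secretoglobins, 5% or more from hemoglobins or any UMI of Ptprc were left out, as were barcodes under 800 UMIs, under 200 genes or above 20% mitochondrial UMIs. Since these values chose the cells, they describe the gate and support nothing else.

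Droplet-based 3′ scRNA-Seq was run on lungs of Cebpa fl/fl control mice and of CebpaΔSftpc mice, in which Sftpc-CreERT2 deletes the floxed Cebpa in cells that use the Sftpc promoter, alveolar type II (AT2) cells in the adult. Per the methods, both genotypes carried the floxed alleles on a mixed background, were usually 3 months old at the start, received 5 daily tamoxifen injections of 75 mg/kg and a later weekly round, and were taken about 26 weeks after the first. Per the study, 3 mice made up each genotype, but there was 1 library per genotype and no barcode names its mouse, so no difference below has a replicate check or a test. Per the study, whole lungs were made into suspensions, and the labels name the usual sorting procedure for mouse lung without a gate. The libraries held 11721 and 13373 barcodes before quality control.

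AT1 cells are very thin, broad epithelial cells that line most of the alveolar surface and face the capillary endothelium across a shared basement membrane. Gases cross them, they carry channels for ions and water and many caveolae, and they send growth and guidance signals to endothelial cells and fibroblasts. They arise from AT2 cells, which make surfactant and serve as their progenitors after injury. The driver of the deletion is an AT2 gene, so an AT1 cell carries the deletion only if it descends from a recombined AT2 cell, and the counts do not show which AT1 cells do.

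The AT1 cells of the Cebpa fl/fl library summed to 457950 UMIs, with 835 UMIs in the shallowest cell, a median of 4024 and 19751 in the deepest. Those of the CebpaΔSftpc library summed to 66898 UMIs, with 864 in the shallowest, a median of 1862 and 16677 in the deepest, which alone held 24.9% of the sum. Cells under 3000 UMIs were 45.8% of the former and 84.0% of the latter. All kept cells had medians of 5058 and 2708 UMIs, so the CebpaΔSftpc library was shallower in general. Between the libraries, 45 barcodes were shared. They included 1 AT1 cell of each library, and no barcode was an AT1 cell in both.

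Cebpa itself did not check the labels. Among the 72 AT1 cells labelled Cebpa fl/fl it had no UMI, and among the 25 labelled CebpaΔSftpc it had 1. In AT2 cells gated from the same libraries (Sftpc at 5% or more of UMIs, Ager, Rtkn2 and Akap5 together under 0.5%; 455 and 229 cells) it stood at 153 and 136 CPM (the gene's UMIs per 1000000 UMIs of the summed cells). The log2 ratio, CebpaΔSftpc over Cebpa fl/fl, was −0.16 (95% interval −0.40 to 0.06). Whether the counted 3′ end of this gene lies in the deleted part is not given in the sources used here, so each direction below is one between libraries as labelled. All intervals are exact, at the 95% level, and cover counting error only.

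RNA of other cells was unequal between the gated cells, before any gene is compared. At least 3 UMIs of the endothelial genes Pecam1, Cdh5 and Cldn5 were found in 7 of 72 AT1 cells of the Cebpa fl/fl library (9.72%, 4.0 to 19.0%) and in 15 of 25 of the CebpaΔSftpc library (60.0%, 38.7 to 78.9%). The 10 endothelial markers summed to 1015 and 4739 CPM, against 17406 and 15493 CPM in gated endothelial cells of the same libraries, and all 10 were detected in AT1 cells of both. Their most abundant member was Egfl7 in the first and Cldn5 in the second. The lymphocyte markers had no UMI in the former and 10 in the latter, with Cd3e and Cd79b at 0 in both. The neutrophil markers had 3 and 23 UMIs, and Cxcr2 and Mmp9 were at 0 in both. The erythroid markers summed to 72.1 and 942 CPM, led by Hbb-bs, and the macrophage markers to 34.9 and 463 CPM, led by Plet1 and Chil3. The deepest CebpaΔSftpc cell was among the endothelial-positive ones, with 42 UMIs of the 3 genes. Results are for all gated cells, and gene lists and many of the named genes are also given for the 63 and 10 cells left when cells with 3 or more UMIs of Pecam1, Cdh5 and Cldn5, or of the fibroblast collagens Col1a1, Col1a2 and Col3a1, were left out. Leaving these mixed cells out did not even out endothelial RNA. With sums under 3 UMIs set to 3, all 10 endothelial markers were still at least 2-fold higher in CebpaΔSftpc, against 42.6% of all genes with a ratio. Calcrl, at 54.5 and 108 CPM, passed only because its 2 UMIs were set to 3. The median log2 ratio of the 10 was 2.47 beside 2.33 in all gated cells. The median was 1.89 with free RNA subtracted, as described below.

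**Figure D1:**
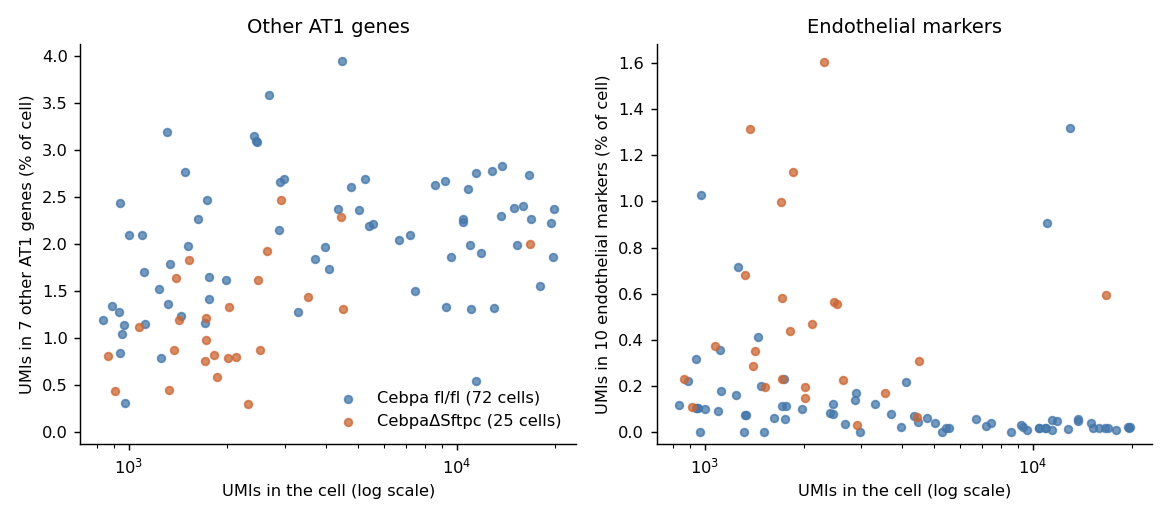
Each point is 1 gated AT1 cell, blue for Cebpa fl/fl (72 cells) and orange for CebpaΔSftpc (25 cells). The x axis is the cell's UMIs on a log scale, and the y axis is the percentage of its UMIs in 7 AT1 genes that the gate did not use (left) or in 10 endothelial markers (right); CebpaΔSftpc cells are mostly shallow and have a median endothelial percentage of 0.351 against 0.0575.

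Ager, which encodes the receptor for advanced glycation end products and lies on chromosome 17 from 34597862 to 34600936 (plus strand, GRCm38, GENCODE release M21), was the most abundant gate gene. Per cell it ranged from 0 to 44877 CPM with a median of 13025 in the Cebpa fl/fl library, and from 1731 to 36139 CPM with a median of 10109 in the CebpaΔSftpc library. The ranges overlapped almost fully. The summed level was 18578 CPM and 12317 CPM (log2 ratio −0.59). Rtkn2, on chromosome 10 (67979570 to 68059740, plus strand), had 1258 and 613 CPM (log2 ratio −1.04). Akap5, a scaffold for protein kinase A on chromosome 12 (76324891 to 76334153, plus strand), had 1729 and 1286 CPM (log2 ratio −0.43, and 0.12 at 3000 UMIs or more). In the Cebpa fl/fl library 1 cell had no Ager and passed on the other genes, and 9 cells lacked Rtkn2. In the CebpaΔSftpc library 13 of 25 cells lacked Rtkn2. Ager supplied most gate UMIs in both libraries, with 8508 beside 576 of Rtkn2 and 792 of Akap5 in the first, and 824 beside 41 and 86 in the second. Just inside the gate, 8 and 5 cells had 0.5 to 0.6% of their UMIs in these genes. Just outside, 3 and 4 cells had 0.4 to 0.5%, and 2 Cebpa fl/fl cells were left out for Sftpc alone.

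Genes that the gate did not use were high in the same cells. The AT1 list held 25 of them, and all 25 were at least 2-fold higher in AT1 than in AT2 cells in both libraries. Over the 3103 genes with a mean of at least 50 CPM across the 4 sums, 21.8% were at least 2-fold higher in AT1 cells of both libraries and 5.9% at least 2-fold lower. The median log2 ratio of the 25, AT1 over AT2, was 4.61 in Cebpa fl/fl and 3.97 in CebpaΔSftpc, beside 0.51 and 0.60 over all genes. Both gates use genes that separate these cell types, so the ratios describe the gates and have no test.

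Hopx, a homeodomain cofactor used as an AT1 marker, lies on chromosome 5 (77086988 to 77115121, minus strand). In the Cebpa fl/fl library it had 6658 CPM in AT1 against 30.5 CPM in AT2 cells, and in the CebpaΔSftpc library 4798 against 56.4 CPM. Igfbp2, a binding protein for insulin-like growth factors, was near 0 in AT2 cells, with 2893 against 2.05 CPM and 1913 against 1.52 CPM. Spock2, an extracellular proteoglycan, had 1341 against 2.27 CPM and 643 against 2.29 CPM. Pdpn, a mucin-type membrane glycoprotein of AT1 cells, had 849 against 1.83 CPM and 568 against 3.05 CPM. Scnn1g, a subunit of the epithelial sodium channel, had 686 against 2.05 CPM and 374 against 5.34 CPM. With sums under 3 UMIs set to 3, the log2 ratio of AT1 over AT2 cells was 6.13 or more for these 5 genes in either library. Bdnf, a neurotrophin, Sema3e, Gpm6a, Sema3a and Nt5e completed the 10 genes with the largest smaller ratio, with at most 2 UMIs each in AT2 cells of the CebpaΔSftpc library. S100a6, a calcium-binding protein and the most abundant gene of the list, had 7619 and 6099 CPM in AT1 cells and 138 and 175 CPM in AT2 cells. Cldn18, a lung claudin, was shared more evenly, with 5389 and 3842 CPM in AT1 and 879 and 690 CPM in AT2 cells.

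**Figure D2:**
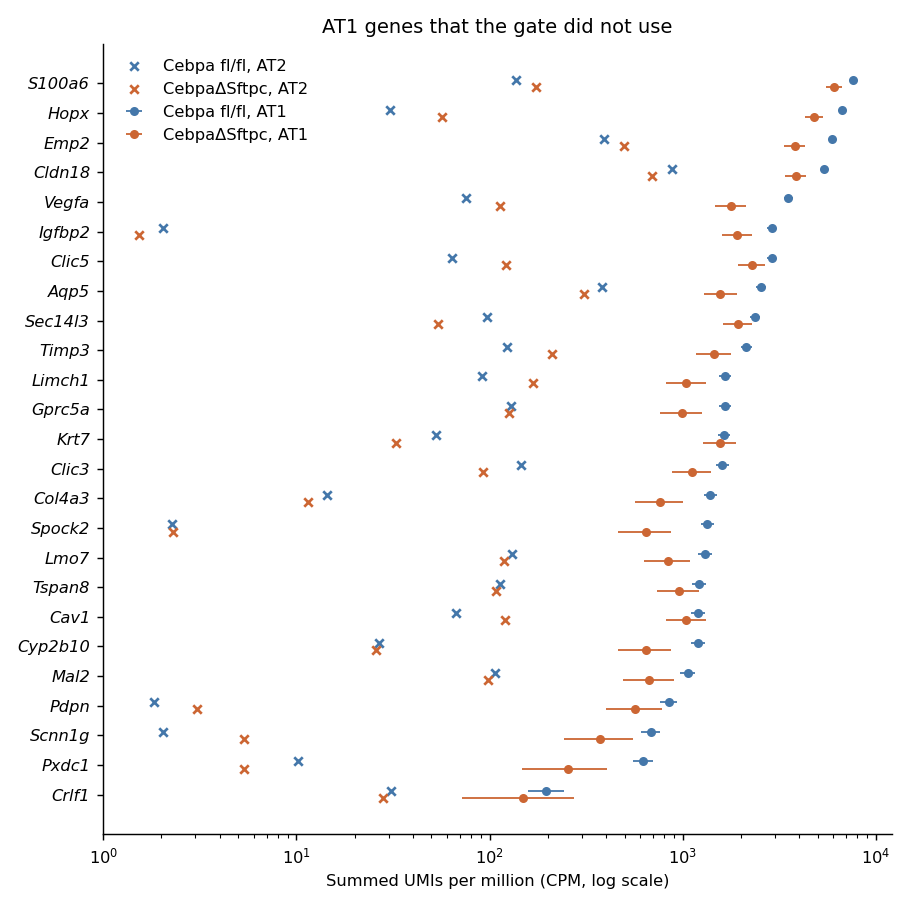
Summed level in CPM (log scale) of the 25 AT1 genes outside the gate, with dots for AT1 cells and crosses for AT2 cells, blue for Cebpa fl/fl and orange for CebpaΔSftpc. Bars are exact 95% Poisson intervals of the AT1 sums; every dot lies to the right of its cross, and every orange dot lies to the left of the blue one.

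At the other end, the 10 genes lowest in AT1 against AT2 cells were surfactant and AT2 genes. Sftpa1, a surfactant protein, had 107 CPM in AT1 and 26499 CPM in AT2 cells labelled Cebpa fl/fl, and 568 against 22279 CPM in those labelled CebpaΔSftpc. Cxcl15, a lung chemokine, had 34.9 against 6108 CPM and 89.7 against 5797 CPM. Slc34a2, the phosphate transporter of AT2 cells, had 28.4 against 4929 CPM and 89.7 against 4935 CPM. Chil1, Lyz2, Sftpd, Fabp5, Hc, Lamp3 and S100g completed the group, and Chil1, Fabp5, Hc and S100g had no UMI in the 25 CebpaΔSftpc AT1 cells. In AT1 cells Sftpc was 364 of the 628 UMIs of the 10 AT2 markers in the first library and 92 of 239 in the second, and no AT1 cell had 1% of its UMIs from it.

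Some markers of other types were part of the AT1 profile itself. Sec14l3, a lipid-binding protein in the ciliated list, had 1088 and 129 UMIs in AT1 cells, 79.6% and 81.6% of that list, while Rsph1 and Mlf1 were at 0 in both libraries. Of the mesothelial list only Igfbp6, Krt19 and Gpm6a had UMIs, led by Igfbp6 with 1080 and 89, and Msln, Upk3b and Wt1 were at 0 in both. Of the club list Scgb1a1 led with 161 and 57 UMIs, and Bpifa1, Bpifb1 and Muc5b were at 0 in both. Fibroblast markers summed to 2157 and 1375 CPM, but 504 of the 988 UMIs in the Cebpa fl/fl library were Mgp. Aerocyte, smooth muscle or pericyte and platelet markers summed to 258, 39.3 and 173 CPM in the first library and to 673, 105 and 329 CPM in the second. The part of this RNA in the values below was not tested.

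The sequence just upstream of the AT1 genes was read from RefSeq (GRCm38.p6), 250 bases before each annotated start, for 23 of the 28 gate and list genes that had an entry, with 31 starts in all. The core of the NKX2-1 motif (CAAGTG, either strand), the site of a lung epithelial factor, was found in 4 of 31 windows (12.9%), against 11.6% of the 32851 windows of all genes. The core of the TEAD motif (GGAATG, either strand), through which YAP and TAZ act, was found in 1 window (3.23%) against 12.6%. The core of the C/EBP motif (TTGCNNAA, either strand), which C/EBPα binds, was found in 2 windows (6.45%), those of Cyp2b10 and Tspan8, against 9.56%. Upstream windows of 3 genes are shown, the most abundant gate gene, which had none of these letters, and the NKX2-1 match of a channel and of 1 of the starts of a junction gene, in the direction of the gene and with matches in capitals. A match is a description of the letters and not a site.
Ager, chr17:34597600-34597849, plus strand: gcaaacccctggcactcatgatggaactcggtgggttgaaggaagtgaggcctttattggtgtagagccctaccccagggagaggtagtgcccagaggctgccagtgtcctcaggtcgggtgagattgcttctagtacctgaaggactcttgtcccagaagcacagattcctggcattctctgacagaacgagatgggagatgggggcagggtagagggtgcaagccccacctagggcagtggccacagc
Scnn1g, chr7:121734229-121734478, plus strand: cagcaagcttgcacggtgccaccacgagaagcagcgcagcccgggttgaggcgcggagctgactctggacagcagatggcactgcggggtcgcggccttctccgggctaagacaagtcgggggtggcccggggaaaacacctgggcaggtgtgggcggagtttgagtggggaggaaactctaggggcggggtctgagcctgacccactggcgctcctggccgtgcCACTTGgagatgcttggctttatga
Cldn18, chr9:99710064-99710313, minus strand: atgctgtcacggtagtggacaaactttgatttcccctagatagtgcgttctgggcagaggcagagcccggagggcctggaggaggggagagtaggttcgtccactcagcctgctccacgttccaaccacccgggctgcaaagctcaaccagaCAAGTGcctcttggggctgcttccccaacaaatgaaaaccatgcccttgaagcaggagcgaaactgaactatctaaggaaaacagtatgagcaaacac

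The share of AT1 cells was lower in the CebpaΔSftpc library. AT1 cells were 0.660% of kept cells (0.517 to 0.831%) in the Cebpa fl/fl library and 0.192% (0.124 to 0.283%) in the other, a log2 ratio of −1.78 (−2.50 to −1.11). AT2 cells, gated on their own genes, were 4.17% and 1.76% (log2 ratio −1.25, −1.48 to −1.01). Of AT1 and AT2 cells together, AT1 cells were 13.7% (72 of 527) and 9.84% (25 of 254), with a log2 ratio of −0.47 whose interval, −1.19 to 0.20, includes 0. Of cells with no Ptprc UMI and under 5% hemoglobin UMIs the log2 ratio was −1.23. When each cell was thinned to 800 UMIs and gated at 4 gate UMIs, 72 and 31 cells were in the gate and the log2 ratio was −1.47, and at 3000 UMIs or more it was −2.88 on 39 and 4 cells. A share here counts cells captured in 1 library each, and fewer cells of a type in the lung, fewer released by digestion and fewer passing the gate cannot be told apart.

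Between the libraries, 3450 genes had a mean of at least 50 CPM in AT1 cells. Of these, 474 (13.7%) were at least 2-fold higher and 184 (5.33%) at least 2-fold lower in CebpaΔSftpc, with a median log2 ratio of 0.12. In the CebpaΔSftpc cells 2179 of the 3450 had under 10 UMIs, so most single ratios rest on few counts. With mixed cells left out and the CPM minimum applied anew, 1233 were higher and 70 lower on 18594 CebpaΔSftpc UMIs, and no count of changed genes is drawn from these totals. Of the 3450 genes, 2276 still had a ratio there, with 42.6% 2-fold higher and 3.08% lower, the background for list counts without mixed cells. Sums under 3 UMIs were set to 3 here too, which is 161 CPM on 18594 UMIs. Genes with 1 or 2 CebpaΔSftpc UMIs are thus raised, which adds to the higher counts and takes from the lower ones. A gene could be called 2-fold lower only with a Cebpa fl/fl level at least 2-fold above 161 CPM. Lists of abundant genes and the background, which starts at a mean of 50 CPM, were not equally open to that call. No difference is read from counts of 2-fold lower genes without mixed cells. Cxcl15, at 35.4 and 53.8 CPM on 1 CebpaΔSftpc UMI, was scored at 2.19.

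The AT1 genes outside the gate were lower in CebpaΔSftpc in all 25 cases, by a modest amount. The median log2 ratio was −0.60, beside 0.12 over all genes. Of the 25, 2 passed 2-fold, Spock2 and Pxdc1, against 5.33% of all genes. Hopx ranged per cell from 1049 to 15188 CPM with a median of 7146 in the Cebpa fl/fl library and from 0 to 9285 with a median of 2915 in the CebpaΔSftpc library. The 2 ranges overlapped widely. The summed log2 ratio of Hopx was −0.47 (−0.64 to −0.31). Emp2, a tetraspan membrane protein, had a ratio of −0.65 (−0.84 to −0.46) and Cldn18 one of −0.49 (−0.68 to −0.30). Spock2 had a ratio of −1.06 (−1.54 to −0.61), and −2.38 (−4.01 to −1.15) without mixed cells on 5 CebpaΔSftpc UMIs. Pxdc1 had one of −1.30 (−2.10 to −0.59) on 286 and 17 UMIs, and without mixed cells −0.48 (−1.71 to 0.52), no longer 2-fold. At 3000 UMIs or more Spock2 was at −0.95, Pxdc1 at −0.72 and Hopx at 0.02. Krt7, a keratin of simple epithelia, stood at 1633 and 1555 CPM (ratio −0.07, −0.38 to 0.23). Cav1, the coat protein of caveolae, stood at 1199 and 1046 CPM (ratio −0.20, −0.58 to 0.16).

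This shift was smaller when free RNA was subtracted, a step that rescales the 2 sums unequally. Without mixed cells, 22 of the 25 were lower by any amount, against 579 of the 2276 genes with a ratio. The median of the 25 was −0.55 and 6 were 2-fold lower, against 3.08% of all genes with a ratio. S100a6, the most abundant of the 25, turned from −0.32 (−0.47 to −0.17) to 0.48 (0.27 to 0.69) without mixed cells, and was at 0.14 with free RNA subtracted. Of its 200 CebpaΔSftpc UMIs without mixed cells 79 lay in 1 cell, which held 2908 of the 18594 UMIs summed there. The turn thus rests largely on that cell, and no difference is read from it. When the RNA profile of all kept cells of a library was subtracted from its AT1 sum until Sftpc reached 0, 444809 and 45047 UMIs remained and the median was −0.14. Hopx was then at 0.03, Cldn18 at 0.04, Spock2 at −0.54, Pxdc1 at −0.86 and Vegfa at −0.51. The step took a larger part of the CebpaΔSftpc sum, 66898 before it, than of the Cebpa fl/fl sum, 457950 before it. Genes scarce in the subtracted profile thus rise together through the smaller total. Ager moved from −0.59 to −0.067 and Igfbp2 from −0.60 to −0.070. That every Sftpc UMI is free RNA was not tested, so these values do not show whether the shift is free RNA.

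**Figure D3:**
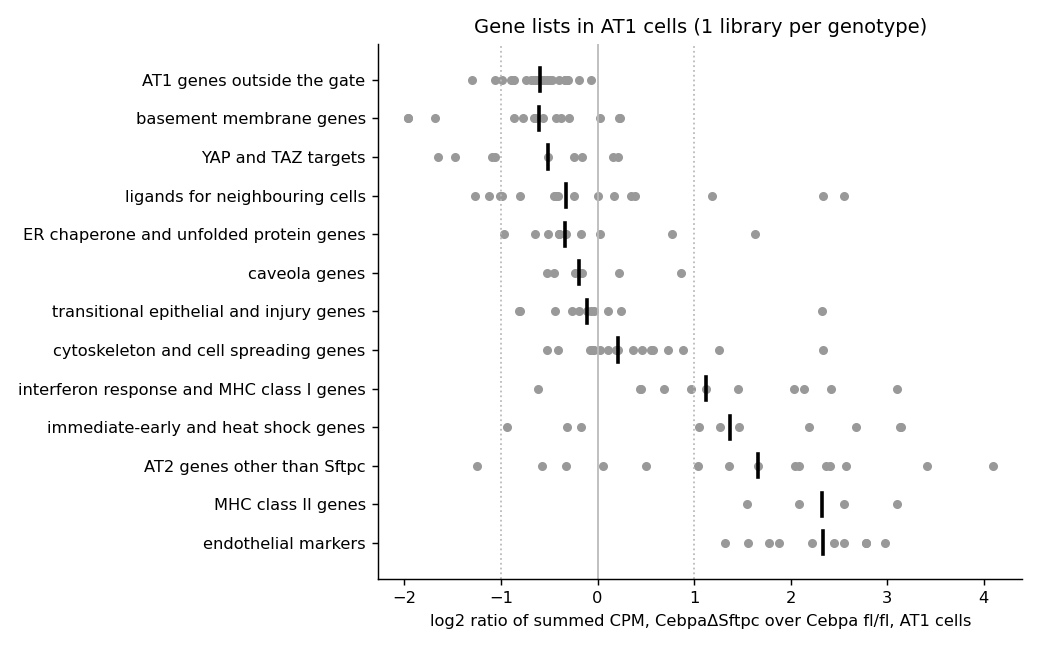
Log2 ratio of summed CPM in AT1 cells, CebpaΔSftpc over Cebpa fl/fl. Each gray point is 1 gene with a mean of at least 50 CPM, black bars are list medians, and dotted lines mark 2-fold; AT1 and basement membrane genes lie mostly left of 0 and AT2, MHC class II and endothelial genes right of it.

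Basement membrane genes were among the lowest. Of 14 measured, 3 were at least 2-fold lower, against 5.33% of all genes, and none higher, with a median of −0.61. The median was −0.41 without mixed cells, −0.32 as a mean over cells and −0.18 with free RNA subtracted. Type IV collagen of the mature alveolar membrane is built from the chains of Col4a3, Col4a4 and Col4a5. Col4a4 had from 0 to 3493 CPM per cell with a median of 602 in Cebpa fl/fl and from 0 to 1986 with a median of 0 in CebpaΔSftpc. Its sums were 1389 and 433 CPM (log2 ratio −1.68, −2.27 to −1.14). Col4a5 had 160 and 6 UMIs (ratio −1.96, −3.43 to −0.81) and Col4a3 had 638 and 51 UMIs (ratio −0.87, −1.31 to −0.46). Lama3, the α chain of laminin-332, had 241 and 9 UMIs (ratio −1.97, −3.11 to −1.02). Col4a1 and Col4a2, which endothelial cells also make, were at −0.57 and −0.78. Without mixed cells Col4a4 was at −2.15 (−3.60 to −1.02), while Lama3 and Col4a5 had 4 and 2 UMIs left and intervals that include 0. Bcam, a laminin receptor, was lower too, with 1343 and 538 CPM (ratio −1.32, −1.85 to −0.83, −0.91 without mixed cells and −0.82 as a mean over cells).

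Signals that AT1 cells send were partly lower. Of 16 ligands measured, 3 were at least 2-fold lower and 3 at least 2-fold higher, against 5.33% and 13.7% of all genes. Without mixed cells 11 had a ratio, and 5 were 2-fold lower and 2 higher, against 3.08% and 42.6% of all genes. Vegfa, the growth factor for capillary endothelium, ranged from 0 to 8290 CPM per cell with a median of 1751 in Cebpa fl/fl and from 0 to 4243 with a median of 755 in CebpaΔSftpc. Its sums were 3531 and 1779 CPM (log2 ratio −0.99, −1.27 to −0.72), and without mixed cells the ratio was −1.89 (−2.65 to −1.23). In AT2 cells it stood at 75.4 and 114 CPM. Pdgfa, which acts on alveolar fibroblasts, had a ratio of −1.12 (−1.76 to −0.55), and −1.41 (−2.87 to −0.27) without mixed cells. The guidance ligands Sema3e and Sema3a had ratios of −1.27 (−1.96 to −0.65) and −1.01 (−1.87 to −0.26), and without mixed cells −1.94 (−3.83 to −0.57) and −0.73 (−2.37 to 0.52). Ndnf, a secreted factor outside the list, had 1839 and 897 CPM (ratio −1.04, −1.44 to −0.66), and was at −1.92 without mixed cells, −0.40 at 3000 UMIs or more and −0.51 with free RNA subtracted. With free RNA subtracted Pdgfa was at −0.65, Sema3e at −0.75 and Sema3a at −0.49, and at 3000 UMIs or more Sema3e was at −0.85 and Sema3a at −0.22, none of them 2-fold. The higher ones were Sema3c, Edn1 and Cxcl12, with 14, 6 and 5 UMIs in CebpaΔSftpc. Sema3c and Edn1 stood at 1034 and 241 CPM in endothelial cells of the Cebpa fl/fl library, against 41.5 and 15.3 CPM in its AT1 cells.

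**Figure D4:**
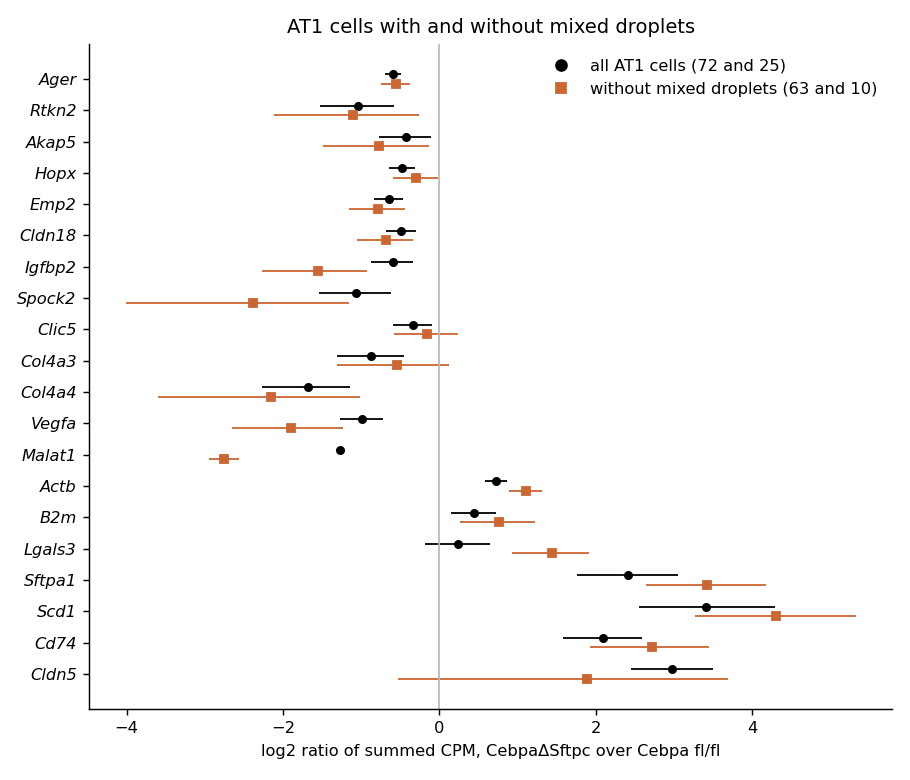
Log2 ratio of summed CPM, CebpaΔSftpc over Cebpa fl/fl, for 20 genes in all AT1 cells (black, 72 and 25 cells) and without mixed cells (orange, 63 and 10 cells), with exact 95% intervals of counting error. Spock2, Col4a4 and Vegfa lie below 0 and Sftpa1, Scd1 and Cd74 above it in both sets, and the intervals are wider on 10 cells. Of the 24 Sftpa1 UMIs in those 10 cells 21 lie in 1 AT2-rich cell, and with the 2 AT2-rich cells left out too Sftpa1 is at 0.68 (−1.65 to 2.32), Scd1 at 3.70 (2.43 to 4.90) and Cd74 at 2.03 (0.96 to 2.97). Of the 10 CebpaΔSftpc UMIs of Scd1 then left, 6 lie in 1 cell of 864 UMIs.

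Of 9 targets of YAP and TAZ, which respond to cell stretch, 4 were at least 2-fold lower, against 5.33% of all genes, and none higher, and without mixed cells 1 was lower, against 3.08%. Among them were Ccn2 with 151 and 7 UMIs (log2 ratio −1.66, −2.99 to −0.58), Nt5e, an ectonucleotidase, with 204 and 14 UMIs (ratio −1.09, −1.99 to −0.31), and Myof with 95 and 5 UMIs (ratio −1.47, −3.13 to −0.20). Without mixed cells they were at −0.92 (−3.22 to 0.67), −1.55 (−3.84 to 0.03) and −0.43 (−2.74 to 1.17), intervals that include 0. Myof, at 218 and 108 CPM there, and Amotl2, at 305 and 108 CPM, missed 2-fold only because their 2 UMIs each were set to 3. Nt5e was at −0.58 with free RNA subtracted. Ccn1 stood at 362 and 419 CPM, and Amotl2 at 301 and 269 CPM. Of 12 transcription factors none was 2-fold lower. Nkx2-1 stood at 280 and 194 CPM (ratio −0.52, −1.47 to 0.30) and Tead1, a DNA-binding partner of YAP, at 673 and 344 CPM (ratio −0.97, −1.65 to −0.36). Klf2 and Klf4 were 2-fold higher, 2 of 12 against 13.7% of all genes (2 of 8 with a ratio without mixed cells, against 42.6%), and both are abundant in endothelial cells, with 1837 and 858 CPM in those of the Cebpa fl/fl library against 124 and 67.7 CPM in its AT1 cells. Without mixed cells Klf2 was at 1.30 (−0.39 to 2.65) and Klf4 at 2.79 (1.30 to 4.09), and with free RNA subtracted Klf2 was at 0.74.

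Genes for transport, caveolae and junctions mostly stayed within 2-fold, where 13.7% of all genes were higher and 5.33% lower, and 42.6% and 3.08% without mixed cells. None of 7 caveola genes passed 2-fold (median −0.20), 1 was higher without mixed cells, and Cavin2 stood at 2037 and 1734 CPM. Of 14 ion and water transport genes 2 were higher, including Aqp1, an endothelial water channel with 29 and 22 UMIs, and none was 2-fold lower, while without mixed cells 12 had a ratio, 3 of them 2-fold higher and 2 lower. Aqp5, the apical water channel of AT1 cells, had 2535 and 1570 CPM (log2 ratio −0.69, −0.99 to −0.40, and −0.25 without mixed cells), and Clic5, a chloride channel family protein, 2891 and 2287 CPM (ratio −0.34, −0.59 to −0.10). The direction of Clic5 turned to 0.20 at 3000 UMIs or more and to 0.08 with free RNA subtracted. Scnn1a stood at 1053 and 837 CPM. Of 15 junction genes 1 was 2-fold higher, Cldn3 with 8 and 7 UMIs, and 1 lower, Ocln with 86 and 5 UMIs (ratio −1.33). Of the 8 Cebpa fl/fl UMIs of Cldn3 6 lay in 1 cell. Of the 7 in CebpaΔSftpc 6 lay in the 2 AT2-rich cells described below, and without those cells it had no ratio. Without mixed cells none of the 14 with a ratio was 2-fold lower, with Ocln at −0.30 (−2.61 to 1.30), and 1 was higher, Cldn3 on the same 7 UMIs. Cdh1, the epithelial cadherin, stood at 341 and 404 CPM. Of 15 receptors 4 were higher, including Calcrl, Acvrl1 and Notch1, and 2 were lower, 1 of them Tnfrsf12a with 89 and 5 UMIs, against the same 13.7% and 5.33%. Without mixed cells 10 of the receptors had a ratio, 5 of them 2-fold higher and 1 lower, but Calcrl, Acvrl1 and Tnfrsf12a then had 2 or 3 CebpaΔSftpc UMIs and intervals that include 0, and Notch1 had no ratio. Calcrl, at 54.5 and 108 CPM there, passed 2-fold only because its 2 UMIs were set to 3. With free RNA subtracted Calcrl was at −0.55 and Acvrl1 at −0.17, and at 3000 UMIs or more Tnfrsf12a was at −0.92. Calcrl, Acvrl1 and Notch1 stood at 2499, 1281 and 214 CPM in Cebpa fl/fl endothelial cells. Il18r1 had 513 and 284 CPM (ratio −0.85, −1.61 to −0.18).

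Keratins and injury genes were close between the libraries. Of 11 genes linked to transitional epithelium, 1 was 2-fold higher, against 13.7% of all genes, and none lower (median −0.11). Without mixed cells 2 were higher and 1 lower, against 42.6% and 3.08% of all genes with a ratio. Krt19 stood at 1151 and 957 CPM (log2 ratio −0.27, −0.66 to 0.11, but 0.31 without mixed cells and 0.23 with free RNA subtracted), and Anxa1 at 1092 and 807 CPM. Lgals3, a galectin, stood at 747 and 882 CPM (log2 ratio 1.44 without mixed cells, 0.93 to 1.92, and −0.29 at 3000 UMIs or more). Of its 59 CebpaΔSftpc UMIs 40 were left without mixed cells, and 27 of these lay in 1 cell. The gene past 2-fold in all gated cells was Cdkn1a, an inhibitor of the cell cycle, with 15 and 11 UMIs (ratio 2.33, 1.06 to 3.55, and −0.26 to 4.05 without mixed cells), and endothelial cells of the 2 libraries held 254 and 346 CPM of it. It was also the 1 of 4 measured p53 targets past 2-fold. Of 17 cytoskeleton genes 2 were higher, 1 of them Vim, an intermediate filament gene with 1952 CPM in endothelial cells and a ratio of −0.31 with free RNA subtracted. Without mixed cells 4 of the 17 were 2-fold higher and 1 lower, against the same 42.6% and 3.08%. Actb, cytoplasmic actin, had 4776 and 7893 CPM (ratio 0.72, 0.58 to 0.86), and 1.11 (0.89 to 1.32) without mixed cells. Of 11 endoplasmic reticulum chaperone genes 1 was higher, Atf4 (ratio 1.63, and 0.63 at 3000 UMIs or more), and none lower, with Hspa5 at 662 and 523 CPM. Of 9 antioxidant genes 1 was higher, Gpx3 with 13 and 10 UMIs, 7 of the 13 in 1 cell. Without mixed cells Gpx3 had 1 CebpaΔSftpc UMI and no ratio. Prdx6, an antioxidant enzyme with phospholipase activity, stood at 4682 and 3423 CPM. Of 10 cell cycle genes only Pcna was measured, at 61.1 and 59.8 CPM.

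AT2 genes other than Sftpc were higher in CebpaΔSftpc AT1 cells, 10 of 15 by at least 2-fold and 1 lower, with a median log2 ratio of 1.66, against 13.7% and 5.33% of all genes. The summed ratio of the list was 0.97 (0.78 to 1.15), 1.56 without mixed cells and −0.32 (−0.74 to 0.07) at 3000 UMIs or more. Without mixed cells 10 of 13 genes with a ratio were 2-fold higher and none lower, against 42.6% and 3.08% of all genes. Sums raised to the floor of 3 UMIs count in both the list and these shares. Per cell they took a median of 0.217% of UMIs in Cebpa fl/fl (0 to 0.992%) and 0.60% in CebpaΔSftpc (0.0720 to 6.14%). Only 2 cells, both CebpaΔSftpc, were above 1%, and they held 87 of the 312 UMIs of these genes (27.9%). The first had 912 UMIs in all, with 21 of Sftpa1, 15 of Sftpb, 8 of Cd74, 6 of Fos and none of Sftpc or Hopx, and it entered the gate on 5 UMIs of Ager. The second had 2020 UMIs, with 73 of Ager, 5 of Hopx, 8 of Muc1, 7 of Scd1, 6 of Cdh1 and 4 of Cldn3, and none of Sftpa1 or Sftpb. These 2 cells held 21 of 38 Sftpa1 UMIs, 15 of 29 Sftpb UMIs and 8 of 10 Muc1 UMIs of the 25. With both left out, an alternative chosen after the values were seen, the median of the list was 1.31. Both were among the 10 cells that were not mixed, where they held 87 of 140 UMIs of the list. With mixed and AT2-rich cells both left out, also chosen after the values were seen, 53 UMIs in 8 CebpaΔSftpc cells gave a summed ratio of 0.40 (−0.03 to 0.80). Of 9 genes with a ratio there, 5 were 2-fold higher and 1 lower. Over all genes with a ratio in those cells, 1086 of 2163 were 2-fold higher and 65 lower, so no difference is read from this count.

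Scd1, a lipid desaturase, was spread more widely: its 20 UMIs in Cebpa fl/fl lay in 17 cells, and its 31 in CebpaΔSftpc in 12 (log2 ratio 3.41, 2.55 to 4.30). Without the 2 cells its ratio was 3.04, at 3000 UMIs or more 2.31, and that of Sftpa1 went from 2.41 to 1.31. Lyz2, lysozyme, had 49 and 37 UMIs (ratio 2.37, 1.71 to 3.02, 2.05 without mixed cells and 0.71 at 3000 UMIs or more), and Napsa, an aspartic protease that processes surfactant proteins, 15 and 13 (ratio 2.57, 1.38 to 3.74, and 1.58 at 3000 UMIs or more). Ctsh, a cathepsin of AT2 cells, was the lower one, with 677 and 284 CPM (ratio −1.25, −2.005 to −0.59), but −0.33 (−1.35 to 0.53) without mixed cells, −0.38 as a mean over cells and −2.06 at 3000 UMIs or more. Wfdc2 stood at 581 and 389 CPM. After thinning to 800 UMIs a Sftpa1 UMI was found in 8 of 72 and 2 of 25 cells (11.1% and 8.0%), against 11.3% and 5.5% of endothelial cells, which do not make it. Before thinning the AT1 shares were 47.2% and 32.0%, and the median endothelial cell had 4776 and 2796 UMIs. The thinned Sftpa1 shares are at the endothelial level, and no difference is read from them.

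MHC and interferon genes were higher in CebpaΔSftpc, 6 of 11 by 2-fold for class I and interferon genes (median 1.12) and 4 of 4 for class II (median 2.32), against 13.7% of all genes. The summed ratio of class II was 2.20 (1.78 to 2.60), 2.84 without mixed cells, −0.12 (−1.26 to 0.83) with free RNA subtracted and −0.995 (−2.90 to 0.40) on 4 CebpaΔSftpc UMIs at 3000 UMIs or more. B2m, the light chain of class I molecules, ranged per cell from 0 to 3584 CPM with a median of 1142 in Cebpa fl/fl and from 404 to 3894 with a median of 2187 in CebpaΔSftpc. H2-K1 had 590 and 1286 CPM (log2 ratio 1.12, 0.76 to 1.48, 0.92 without mixed cells and 0.22 at 3000 UMIs or more) and Isg15, a ubiquitin-like protein induced by interferon, 8 and 10 UMIs. With mixed and AT2-rich cells both left out H2-K1 was at 0.08 (−1.07 to 1.04) on 9 CebpaΔSftpc UMIs. Cd74, the class II invariant chain and an AT2 gene, had 90 and 56 UMIs (ratio 2.09, 1.58 to 2.59), and at 3000 UMIs or more its ratio was −1.03 on 4 CebpaΔSftpc cells. B2m, H2-K1 and H2-D1 stood at 2658, 2123 and 3283 CPM in endothelial cells of the Cebpa fl/fl library. With free RNA subtracted the median of the class I list was 0.10. Without mixed cells it was 1.11, with 5 of 10 genes 2-fold higher, against 42.6% of all genes.

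Immediate-early genes were higher as well, 7 of 10 by at least 2-fold and none lower by as much (median 1.37), against 13.7% and 5.33% of all genes. Jun had 308 and 852 CPM (log2 ratio 1.47, 0.998 to 1.92), but 28 of its 57 CebpaΔSftpc UMIs were in 1 cell, and it was at 0.12 (−1.36 to 1.29) without mixed cells and at 0.87 without the deepest cell of each library. Fos had 18 and 23 UMIs (ratio 3.13, 2.18 to 4.10), 6 of the 23 in 1 AT2-rich cell, and was at 1.30 at 3000 UMIs or more and 1.79 with gate genes at 1% or more. Ier3, a survival gene, was lower, with 1572 and 822 CPM (ratio −0.94, −1.36 to −0.54). The summed level of the list was 2845 and 3543 CPM, a ratio of 0.32, with Ier3 as its most abundant gene in Cebpa fl/fl and Jun in CebpaΔSftpc. Without mixed cells 5 were 2-fold higher and 2 lower, Ier3 at −1.09 and Hspb1, a small heat shock protein, at −1.32 on 2 UMIs, against 42.6% and 3.08% of all genes. The summed ratio was 0.09 (−0.32 to 0.47) without mixed cells and −0.17 (−0.46 to 0.11) with free RNA subtracted.

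The calprotectin subunits S100a8 and S100a9 had 0 and 1 UMI in the 72 Cebpa fl/fl cells and 7 and 10 UMIs in the 25 CebpaΔSftpc cells. The S100a9 UMIs lay in 9 CebpaΔSftpc cells with at most 2 in any. After thinning to 800 UMIs, 16% of CebpaΔSftpc AT1 cells had a UMI of S100a9 (4.54 to 36.1%, and 36.0% before thinning) against 17.7% of endothelial and 22.3% of AT2 cells of that library. In the Cebpa fl/fl library the shares were 0% of 72 AT1 cells (exact upper bound 4.99%), 0% of endothelial and 0.22% of AT2 cells. The AT1 share in CebpaΔSftpc was not above the other 2 shares of its library, and its interval includes them. Of the 6 measured genes of the wider inflammation list 3 were higher and 1 lower, against 13.7% and 5.33% of all genes. The lower one was Cxcl16 with 130 and 9 UMIs (ratio −1.08, and −0.75 without mixed cells with an interval that includes 0, and −0.14 as a mean over cells), and Icam1, an adhesion molecule that AT1 cells carry, stood at 1269 and 732 CPM (log2 ratio −0.79, −1.24 to −0.37).

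Of the 10 genes highest in CebpaΔSftpc AT1 cells by the bound of their interval nearest 0, 6 are known from other cells. Chil3, a macrophage chitinase-like protein, had 1 and 24 UMIs, Igkc, an antibody light chain, 0 and 9, and S100a9 1 and 10. Cldn5, Tmem100 and Lyve1, genes of endothelium, had 60 and 69, 56 and 48, and 6 and 11 UMIs, and Slfn5 had 8 and 13. The 11 Lyve1 UMIs lay in 2 cells, 9 of them in 1, and as a mean over cells its ratio was 0.71 in place of 3.65. Scd1, Muc1 and Fos completed the 10. Without mixed cells Lyve1 had no CebpaΔSftpc UMI left, Cldn5 had 3 and Chil3 had 9.

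Of the 10 lowest, Malat1, a nuclear long noncoding RNA, had the largest counts. It took from 0 to 20.3% of the UMIs of a Cebpa fl/fl cell with a median of 1.31%, and from 0.0899 to 8.22% with a median of 2.30% in CebpaΔSftpc. The summed levels were 86302 and 35876 CPM (log2 ratio −1.27, −1.33 to −1.21), although the median cell was higher in CebpaΔSftpc. Of the 2400 CebpaΔSftpc UMIs 1371 were in 1 cell, and the ratio was −2.08 without the deepest cell of each library, −2.75 (−2.94 to −2.56) without mixed cells and −0.89 at 3000 UMIs or more. In the Cebpa fl/fl library 17 cells, all with 3000 UMIs or more, were at 10% or more, and no CebpaΔSftpc cell was. Its median was 7.93% in the 39 Cebpa fl/fl cells with 3000 UMIs or more and 0.373% in the 33 below, so it was higher in deep than in shallow cells of that library. In CebpaΔSftpc the medians were 1.73% in the 4 deep and 2.30% in the 21 shallow cells. Mgp, a matrix inhibitor of calcification, had 504 UMIs in Cebpa fl/fl, of which 295 and 164 were in 2 cells, and without mixed cells its ratio turned from −1.20 to 1.72, and with gate genes at 1% or more it was 2.01. The others were Col4a4, Lama3, Col4a5, Bcam, Vegfa, Ndnf, Tmed5 with 129 and 5 UMIs (−0.78 without mixed cells, −3.08 to 0.80, and −0.74 as a mean over cells), and Bsg, a chaperone of lactate transporters, with 1620 and 688 CPM (ratio −1.24, −1.70 to −0.81, and −0.83 without mixed cells, −0.92 with free RNA subtracted).

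The AT1 cells also varied among themselves within each library. Of the 7 AT1 genes Hopx, Emp2, Clic5, Aqp5, Cav1, Pdpn and Spock2, at least 5 were detected in 58 AT1 cells with the Cebpa fl/fl label and 20 with the CebpaΔSftpc label, and all 7 in 41 and 7. At 800 UMIs per cell Hopx was found in 100% and 92.0% of AT1 cells, against 25.4% and 21.0% of endothelial cells, and S100a6 in 98.6% and 84.0% against 5.5% and 16%. Before thinning these shares in AT1 cells were 100% and 96.0% for Hopx and 98.6% and 92.0% for S100a6. Aqp5 was found in 66.7% and 64.0% of AT1 cells against 0.20% and 0.10%. Igfbp2 ranged from 0 to 13463 CPM per cell with a median of 1088 in Cebpa fl/fl, and from 0 to 6447 with a median of 1189 in CebpaΔSftpc. The ranges overlapped, while the sums differed (log2 ratio −0.60, −0.87 to −0.33, −1.56 without mixed cells and −0.070 with free RNA subtracted). It had no UMI in 12 and 5 cells, and at 800 UMIs it was found in 54.2% (42.0 to 66.0%) and 64.0% (42.5 to 82.0%), against 0.40% and 0.50% of endothelial cells. At equal depth Pdpn was found in 33.3% and 16% and Spock2 in 52.8% and 32% of AT1 cells, with intervals that overlap for each.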

How the data were processed

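Barcoded 3′ libraries of both genotypes were counted by the authors before deposit: the deposited count tables hold UMI counts per gene and barcode from Cell Ranger (5.0.0 per the file headers, 6.1.1 per the submitters' processing notes) on mm10. Everything after that was computed here with Python 3.11.15, numpy 2.4.6, scipy 1.17.1, pandas 2.3.3 and scanpy 1.11.5, and plots with matplotlib 3.10.9.

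Barcodes with at least 200 genes, at most 20% mitochondrial UMIs and at least 800 UMIs were kept (10906 and 13024), AT1 cells were gated as described, and their UMIs were summed per library. Genes with a mean of at least 50 CPM were compared, and are the ones called measured in a list, "2-fold" being a ratio of the sums. Sums under a floor of 3 UMIs were set to 3, and no ratio was given where both sums were at the floor or it turned the direction. Ratio intervals are exact conditional binomial and shares Clopper-Pearson, both for counting error only. With 1 library per genotype there is no test. For thinned shares each cell was reduced to 800 UMIs, endothelial cells on 1000 cells drawn per library. Scrublet called 0 doublets at its automatic threshold in both libraries, so the highest-scoring 915 and 1051 barcodes were left out as an alternative. They included 2 Cebpa fl/fl and 0 CebpaΔSftpc AT1 cells, so this alternative left the CebpaΔSftpc AT1 cells unchanged. Calculations were tested on simulated counts. Gene positions are from GENCODE release M21. The named genes were the gate genes and Cebpa, the 4 most abundant members of each list with any past 2-fold whose interval excludes 0, and the 10 genes each way per comparison. Others were named after their values were seen. Members and lists were chosen with earlier results of these data known.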

Additional observations from a re-analysis of the deposited data

How the results depend on the processing

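Values are log2 ratios, CebpaΔSftpc over Cebpa fl/fl, unless a count is named, beside −1.78 for the share of AT1 cells, 474 genes higher and 184 lower by 2-fold, and list medians of −0.60 (AT1 genes), 1.66 (AT2 genes) and 1.12 (MHC class I and interferon genes). At 3000 UMIs or more the share was −2.88, 907 genes were higher and 72 lower, the MHC class I median was 0.24 and Cd74 was at −1.03. Of AT1 and AT2 cells the share was −0.47. With gate genes at 1% or more 120 genes were lower and Mgp was at 2.01, and without Scrublet doublets Mgp was at 2.22. Without mixed cells 1233 genes were higher and 70 lower, the AT2 median was 2.72 and Mgp was at 1.72. With free RNA subtracted the AT1 median was −0.14, the MHC class I median 0.10, Cd74 −0.010, Calcrl −0.55, Acvrl1 −0.17, Ifitm3 −0.31, Junb −0.75 and Vim −0.31. The mean over cells gave 325 genes lower, and median-ratio scaling 288 lower and an AT1 median of −0.72. Filters of 20 CPM, 100 CPM and none gave 1440, 161 and 1992 genes higher, the second 87 lower, and a pseudocount of 1 gave 121 lower. Without the 2 AT2-rich cells, chosen after seeing the data, Sftpd was at −0.067, and with mixed cells left out too 1445 genes were higher, 65 lower and Mgp was at 1.74. Other than by fewer cells or genes, the cause was not tested. In all, 98 summary values stayed near the main value and 21 moved, and of single genes 1425 values stayed, 201 moved and 12 reversed. A limit of Sftpc under 1% kept the same 72 and 25 cells, so its 130 single-gene values could not move. Ratios were counted as stayed when inside the interval of the main value, which is wide where UMIs are few. The tally is thus no measure of robustness.

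No paired analysis was possible because each genotype is 1 library, and for the same reason no replicate was left out. The depth of the 25 CebpaΔSftpc cells limits most single genes: 2179 of 3450 had under 10 UMIs there, and the deepest cell held 24.9% of all UMIs. Mouse, library and genotype cannot be told apart.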
